A study of Mus musculus with 5 samples.

Results

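Chemokine receptors were followed across the leukocytes of the obstructed mouse kidney. The set held 8 genes chosen by name from the gene tables: Ccr1, Ccr2, Ccr7, Cx3cr1, Cxcr2, Cxcr3, Cxcr4 and Cxcr6, of 28692 gene rows in the droplet tables. The mice were C57/BL6, aged 8 weeks, and kidney digestion took place on ice before a DAPI sort that kept viable cells. The injury was unilateral ureteric obstruction (UUO), which blocks urine outflow from 1 kidney, and the study's title names the myeloid cells of the kidney after a reversible injury of this kind. Droplet sequencing with a 3' chemistry, which counts unique molecular identifiers (UMIs), gave 4 libraries. The control was a sham-operated library at day 0. Obstructed kidneys were taken at day 2 and at day 7, and the last library, called reversed here, came from experimental day 14, when the obstruction had been lifted for 7 days. Per library 3 mice were pooled, and no time point had a second library, so time points were compared without a test. A Smart-seq2 sample of 768 wells mixed all time points, and its wells carried no time label.

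Chemokine receptors are membrane receptors coupled to inhibitory G proteins that steer leukocytes along gradients of small secreted ligands. Ccr2 is known for the exit of inflammatory monocytes from bone marrow, Cx3cr1 marks patrolling monocytes and many resident kidney macrophages, and Ccr1 is shared by monocytes and neutrophils. Cxcr2 recruits neutrophils and Cxcr4 retains them in marrow. Cxcr3 and Cxcr6 are carried by activated and tissue-resident lymphocytes, and Ccr7 guides mature dendritic cells and naive lymphocytes to lymph nodes.

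The genes lie on 4 chromosomes of GRCm38, and 4 of the 8 share chromosome 9. Cx3cr1 spans chr9:119901616-120069879 on the minus strand, Cxcr6 chr9:123806475-123811760 on the plus strand, Ccr1 chr9:123962124-123968692 on the minus strand and Ccr2 chr9:124101950-124113557 on the plus strand. Cxcr6 lies inside the span of Fyco1, which is on the opposite strand. Cxcr2 (chr1:74153989-74161246, plus) and Cxcr4 (chr1:128588199-128592293, minus) share chromosome 1. Ccr7 is at chr11:99144196-99155077 and Cxcr3 at chrX:101731535-101734269, both on the minus strand.

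Promoters of the receptors that were high together in T cells (Cxcr3 and Cxcr6) and in neutrophils (Cxcr2, Ccr1 and Cxcr4) are shown, since the results turn on these groups. Each run covers 250 bases before to 50 after the RefSeq start on GRCm38.p6, read 5' to 3' on the gene's own strand: chrX:101734098-101734397 (minus), chr9:123806227-123806526 (plus), chr1:74153744-74154043 (plus), chr9:123968643-123968942 (minus) and chr1:128592250-128592549 (minus). Capitals mark TGTGGT, the core bound by RUNX factors, and GAGGAA, a purine box bound by ETS factors. A match on the other strand reads ACCACA or TTCCTC. The motifs were chosen after matches had been seen.
Cxcr3: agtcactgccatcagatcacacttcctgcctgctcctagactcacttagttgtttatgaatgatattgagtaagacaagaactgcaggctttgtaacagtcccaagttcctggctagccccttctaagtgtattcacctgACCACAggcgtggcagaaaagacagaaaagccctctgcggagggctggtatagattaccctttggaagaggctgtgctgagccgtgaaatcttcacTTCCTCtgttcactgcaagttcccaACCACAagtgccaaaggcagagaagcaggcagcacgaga
Cxcr6: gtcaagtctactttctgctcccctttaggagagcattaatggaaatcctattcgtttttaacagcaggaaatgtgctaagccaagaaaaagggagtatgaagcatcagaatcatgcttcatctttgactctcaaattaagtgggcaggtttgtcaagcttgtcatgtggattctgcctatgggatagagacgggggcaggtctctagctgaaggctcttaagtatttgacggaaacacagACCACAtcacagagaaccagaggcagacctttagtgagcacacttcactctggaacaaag
Cxcr2: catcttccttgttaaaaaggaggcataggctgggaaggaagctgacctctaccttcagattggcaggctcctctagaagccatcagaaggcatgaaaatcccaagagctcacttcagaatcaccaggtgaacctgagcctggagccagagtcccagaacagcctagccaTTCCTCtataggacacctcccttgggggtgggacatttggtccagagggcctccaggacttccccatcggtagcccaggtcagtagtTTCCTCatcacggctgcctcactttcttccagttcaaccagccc
Ccr1: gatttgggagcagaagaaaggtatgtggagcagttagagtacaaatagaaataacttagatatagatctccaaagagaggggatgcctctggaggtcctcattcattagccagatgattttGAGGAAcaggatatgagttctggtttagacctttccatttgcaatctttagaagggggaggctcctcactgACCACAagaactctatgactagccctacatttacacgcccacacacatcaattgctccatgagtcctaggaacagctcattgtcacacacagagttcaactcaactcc
Cxcr4: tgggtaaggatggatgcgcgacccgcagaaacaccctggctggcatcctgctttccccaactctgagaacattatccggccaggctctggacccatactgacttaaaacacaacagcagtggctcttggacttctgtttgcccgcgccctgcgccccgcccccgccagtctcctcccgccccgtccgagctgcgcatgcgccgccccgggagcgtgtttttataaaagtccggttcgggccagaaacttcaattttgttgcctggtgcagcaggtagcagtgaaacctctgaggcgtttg
TGTGGT was found in the promoters of Ccr1, Cx3cr1, Cxcr3 and Cxcr6, 4 of the 7 receptors matched in the promoter table, and in 16.8% of all 32851 promoters of this length. GAGGAA was found in Ccr1, Cxcr2 and Cxcr3 and in 28.3% of all promoters. The Cxcr4 window held neither. The Cxcr6 match lay 10 bases before the start, and the Cxcr3 promoter held 1 match 110 bases before and 1 match 12 bases after it. These matches describe letters and show no binding.

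Leukocytes were gated with marker panels that held none of the 8 receptors, which gave 4492 leukocytes among 13823 cells kept. Gated leukocytes numbered 88 in the sham library, 684 at day 2, 2804 at day 7 and 916 after reversal, which was 2.24%, 30.99%, 63.1% and 28.3% of the cells kept. Their median depth was 2702, 8547, 5898 and 4836 UMIs per cell. Cells passing panels of more than 1 lineage, between 14 and 96 per library, were left out. Each library shared between 52 and 95 barcodes with the other libraries. Panel limits were set after the panel distributions had been seen and without reference to the receptors. Of the macrophages 9.39% lay within 0.5 log2 units of a limit, and of the type 2 dendritic cells 53.6% did. The gate for T cells without Cd4 or Cd8 was led by Trdc, Il17a, Klra7 and Tcrg-C1. Trdc and Tcrg-C1 are gamma delta T cell genes, but Trbc2, an alpha beta T cell gene, and the NK receptors Klra7 and Klra1 were also among its 10 leading genes, so the gate is mixed. Leading the B cell gate were Igkc, Jchain and Igha, antibody genes. The class of other phagocytes is the remainder of the phagocyte gate and, like the class high in both Ly6c2 and C1q genes, held none of its own markers among its 10 leading genes, so these 2 classes are not compared over time. Ccr7, Cxcr2 and Cxcr6 were themselves among the 10 leading genes of a gate.

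Levels are given as counts per 1000000 (CPM), the receptor's UMIs over all UMIs of the subset's cells, in libraries with at least 10 cells of the subset, with exact 95% Poisson intervals that cover counting error only. Each subset was also tested against all other gated leukocytes of the same library with edgeR's quasi-likelihood test on summed UMIs, library as a block and Benjamini-Hochberg adjustment over all genes. In this test the libraries, which are different time points, stand as the samples. The SE printed with an edgeR fold change was derived from the test, as the absolute log2 fold change over the square root of its F statistic. The makeup of the other leukocytes differed between libraries: macrophages were 32 of 88 leukocytes in sham, 135 of 684 at day 2, 1564 of 2804 at day 7 and 368 of 916 after reversal. Of the receptor and subset pairs tested, 81 passed an adjusted p of 0.05, of which 23 were higher and 58 lower. Of the 58 lower calls, 20 were lost under at least 1 of the 14 alternatives tried, with 7 lost without the day 2 library, 11 without the day 7 library and 13 without the reversed library. The broad classes of mononuclear phagocytes and T cells contain the finer subsets, so these pairs are not independent.

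**Figure D1:**
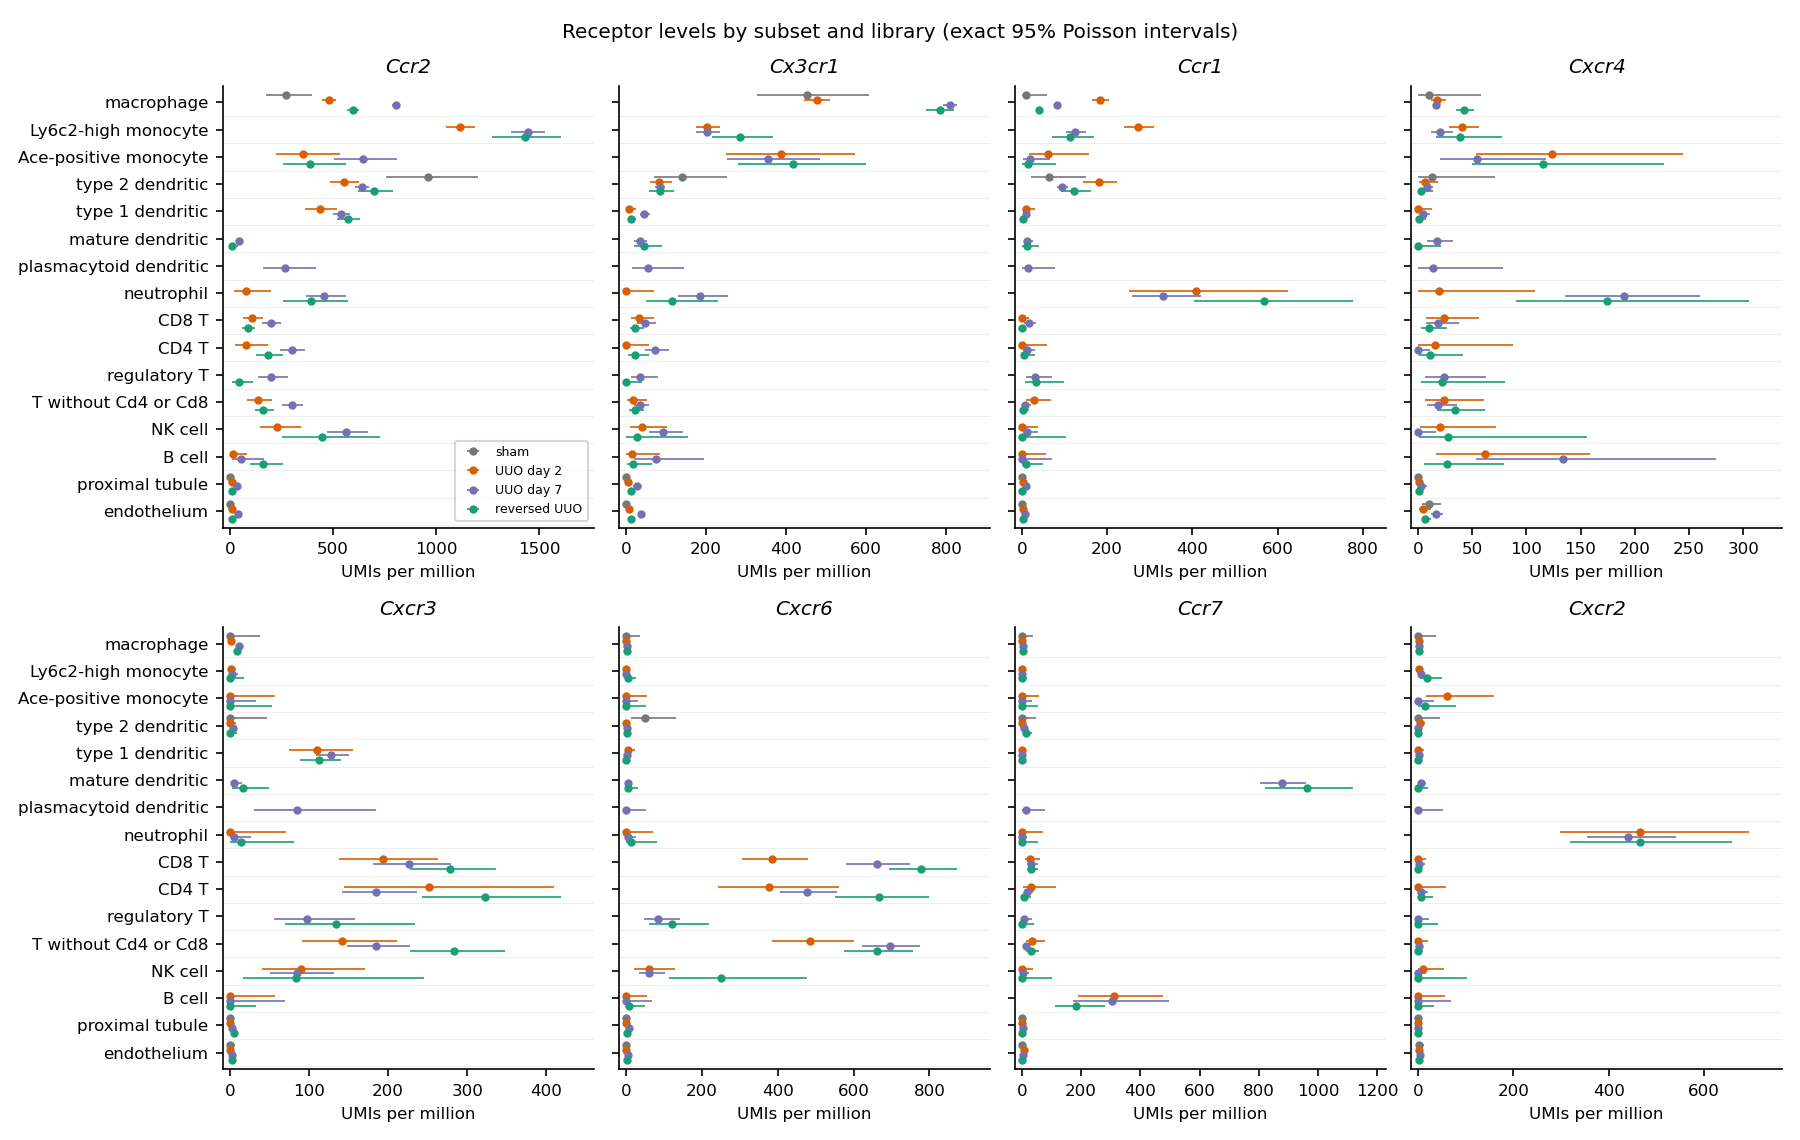
Level of each receptor in CPM (x axis) by gated subset (y axis), coloured by library, with exact 95% Poisson intervals. Ccr2 and Cx3cr1 are spread over several subsets, whereas Cxcr2 stands out in neutrophils, Ccr7 in mature dendritic cells and B cells, and Cxcr6 in T cells.

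Ccr2, the receptor of Ccl2, was highest in Ly6c2-high monocytes, the classical inflammatory monocytes. Its level there was 1117 CPM at day 2, 1445 at day 7 and 1431 after reversal. In macrophages it was 273, 482, 805 and 598 from sham to reversal, in type 2 dendritic cells 961, 553, 642 and 702, and in type 1 dendritic cells 437, 540 and 574 from day 2 to reversal. The monocyte values, 1331 ± 186 (SD, n = 3 libraries), lay above every value of these 3 subsets. The small class high in both Ly6c2 and C1q genes overlapped them, with 1052 at day 2 and 1289 at day 7. Thinned to 1000 UMIs per cell, 65.5%, 72.3% and 66.7% of Ly6c2-high monocytes held a Ccr2 UMI, against 44.9% of macrophages at day 7. Without thinning these day 7 shares were 97.7% and 70.6%. Endothelial cells, which should lack the receptor, held Ccr2 at 38.8 CPM at day 7 and in 4.88% of thinned cells, and proximal tubule cells at 34.0 and in 1.20%. Their median depths there were 3467 and 5273 UMIs per cell. By edgeR's quasi-likelihood test Ccr2 was higher in Ly6c2-high monocytes than in the other leukocytes, with a log2 fold change of 1.20 (SE 0.13, adjusted p 2.6e-06, 3 of 3 libraries). In macrophages the fold change was -0.25 (SE 0.27, adjusted p 0.58).

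Ccr2 UMIs were not limited to phagocytes. NK cells held 230, 565 and 448 CPM from day 2 to reversal, and T cells as a whole 213, 128, 256 and 123 from sham to reversal. The median phagocyte panel level was 69.9 UMIs per 10000 in NK cells. It was 13.3 in CD8 T cells, 17.5 in CD4 T cells and 17.7 in T cells without Cd4 or Cd8. The edgeR test placed Ccr2 lower in NK cells (log2 fold change -1.10, SE 0.25, adjusted p 0.00021) and in T cells (-2.33, SE 0.20, adjusted p 3.2e-08) than in the other leukocytes. The NK cell call was lost without the day 2 library (-0.77, adjusted p 0.16) and without the library block (adjusted p 0.056). Mature dendritic cells held 45.4 at day 7 and 11.4 after reversal, beside 38.8 and 10.8 in endothelium of the same libraries. In neutrophils Ccr2 was at 77.7, 459 and 393, but 0%, 13.04% and 12.5% of thinned cells held a UMI, and their median phagocyte panel level was 157 UMIs per 10000. The part of phagocyte RNA in the neutrophil and NK cell values was not tested. Neutrophils and NK cells also use genes of the phagocyte panel, so its level in them does not measure such RNA.

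Cx3cr1, the receptor of the membrane-bound ligand Cx3cl1, was highest in macrophages. It reached 452, 476, 808 and 784 CPM from sham to reversal, 630 ± 192 (SD, n = 4 libraries). Ace-positive monocytes, the patrolling type, held 387, 354 and 418 from day 2 to reversal, and Ly6c2-high monocytes 204, 204 and 284. No macrophage value overlapped those of the monocytes, while type 2 dendritic cells stayed between 83.9 and 141 and type 1 dendritic cells between 6.88 and 46.4. Endothelial and proximal tubule cells held 37.9 and 27.4 at day 7, beside 46.4 in the type 1 dendritic cells of that library, and the counting intervals of these cells and of endothelium overlapped. By edgeR's test Cx3cr1 was higher in macrophages with a log2 fold change of 2.43 (SE 0.32, adjusted p 0.00018, 4 of 4 libraries). It was lower in type 2 dendritic cells (-2.08, SE 0.19, adjusted p 1.7e-09) and in Ly6c2-high monocytes (-0.73, SE 0.18, adjusted p 0.0066), a call lost without the day 7 library (-0.43, adjusted p 0.24) and without the library block (-0.76, adjusted p 0.0833). For Ace-positive monocytes the fold change was -0.17 (SE 0.24, adjusted p 0.82). Macrophages held 68.3%, 44.5%, 89.2% and 86.9% of all leukocyte Cx3cr1 UMIs from sham to reversal.

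Ccr1, which binds Ccl3, Ccl6 and Ccl9, was highest in neutrophils at 408, 332 and 568 CPM from day 2 to reversal, 436 ± 120 (SD, n = 3 libraries). Ly6c2-high monocytes held 273, 125 and 113, and macrophages 10.5, 184, 83.5 and 40.4 from sham to reversal, where the sham value is 1 UMI. The neutrophil values overlapped those of neither subset. By edgeR's test Ccr1 was higher in neutrophils (log2 fold change 2.33, SE 0.37, adjusted p 4.7e-08) and in Ly6c2-high monocytes (0.98, SE 0.17, adjusted p 0.00043). It was also higher in type 2 dendritic cells (0.69, SE 0.19, adjusted p 0.012), but that call was lost without the day 7 library (adjusted p 0.064) and without the reversed library (adjusted p 0.31, log2 fold change 0.34). In macrophages the fold change was 0.09 (SE 0.17, adjusted p 0.79). Without the library block the Ly6c2-high monocyte call was lost too (log2 fold change 1.05, adjusted p 0.24).

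Counts of receptors passing the test were read against the share of all genes that passed. In macrophages 1 of 6 receptors tested was higher (Cx3cr1) and 2 lower (Cxcr3, Cxcr6), against 10.6% and 9.99% of all genes. In Ly6c2-high monocytes 2 of 8 were higher (Ccr1, Ccr2) and 4 lower, against 7.76% and 8.74%. In Ace-positive monocytes 1 was higher (Cxcr4) and 5 lower, against 1.98% and 3.49%. In type 2 dendritic cells 1 of 7 was higher and 5 lower, against 7.86% and 8.96%. Among other phagocytes 1 of 8 was higher (Ccr2) and 4 lower, against 2.15% and 4.06%. That Ccr2 call (log2 fold change 0.51) was lost without the day 7 library (adjusted p 0.18) and without the reversed library (adjusted p 0.29). Over all mononuclear phagocytes 3 of 8 were higher (Ccr1, Ccr2, Cx3cr1) and 4 lower, against 16.2% and 11.1%. The log2 fold changes of these 3 were 1.95 (SE 0.23), 1.61 (SE 0.16) and 4.14 (SE 0.24), with edgeR adjusted p of 4.8e-05, 1.2e-05 and 3.1e-07. Cxcr4 was the receptor without a call there (0.41, SE 0.29, adjusted p 0.35). Lower calls lost without 1 library were Ccr1 (day 2 or day 7), Ccr2 (any of the 3), Ccr7 and Cxcr3 (day 7 or reversed) in Ace-positive monocytes, Cxcr2 in other phagocytes (day 2 or reversed), and Cx3cr1 in Ly6c2-high monocytes (day 7).

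**Figure D2:**
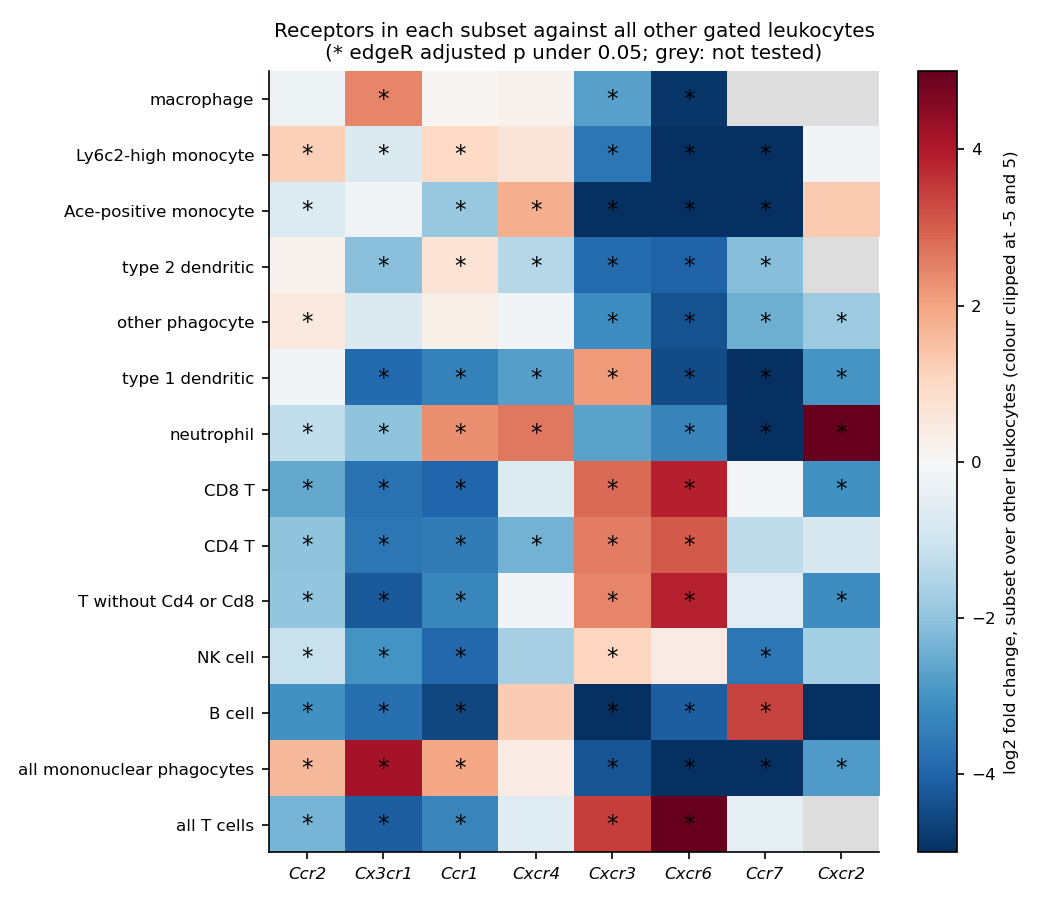
Log2 fold change of each receptor (columns) in each gated subset (rows) against all other gated leukocytes, from edgeR's quasi-likelihood test, with a star where the adjusted p is under 0.05, grey where the gene was not tested, and colour clipped at -5 and 5. Starred red cells are single for Ccr7 (B cells) and Cxcr2 (neutrophils), lie in T cell gates for Cxcr6, and cross lineages for Ccr1 (neutrophils and phagocytes), Cxcr4 (neutrophils and Ace-positive monocytes) and Cxcr3 (T cells, NK cells and type 1 dendritic cells).

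Neutrophils carried Cxcr2, the receptor of Cxcl1 and Cxcl2, at 466 CPM at day 2, 439 at day 7 and 466 after reversal, in 14, 46 and 16 cells. The 3 values differed by less than their counting intervals. In every other subset and library Cxcr2 was at 61.9 or below, and 54.5%, 65.2% and 71.1% of its leukocyte UMIs lay in the neutrophil gate. By edgeR's test the log2 fold change was 7.31 (SE 0.44, adjusted p 1.8e-58). Cxcr4, the receptor of Cxcl12, was at 19.4 at day 2, which is 1 UMI, 190 at day 7 and 175 after reversal. Its fold change in neutrophils was 2.62 (SE 0.44, adjusted p 2.1e-07), and without the day 7 library the call was lost (1.65, adjusted p 0.36). Of the 8 receptors 3 were higher (Ccr1, Cxcr2, Cxcr4) and 4 lower in neutrophils (Ccr2, Ccr7, Cx3cr1, Cxcr6), against 3.59% and 3.46% of all genes. The lower call of Ccr2 was lost without each of the 3 libraries in turn (adjusted p 0.39, 0.073 and 0.27 without day 2, day 7 and reversal), and those of Ccr7 and Cxcr6 without the day 7 and without the reversed library. Ccr7 gave 0 UMIs in neutrophils of all 3 libraries, and the day 7 count allows up to 14.6 CPM. In thinned day 7 neutrophils Ccr1 and Cxcr2 were found together in 15.2% of cells, Ccr1 alone in 26.1% and Cxcr2 alone in 21.7%. Of the 14 day 2 cells 4 held both, 1 Ccr1 alone and 0 Cxcr2 alone. Of the 16 cells after reversal 4 held both, 2 Ccr1 alone and 1 Cxcr2 alone. At day 7 Cxcr2 and Cxcr4 were found together in 2.17%, with Cxcr2 alone in 34.8% and Cxcr4 alone in 10.9%. These shares were 0%, 28.6% and 0% at day 2, and 12.5%, 18.8% and 18.8% after reversal. No background share was taken for these neutrophil pairs.

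Cxcr4 was not limited to neutrophils. Ace-positive monocytes held 124, 54.5 and 115 CPM from 8, 6 and 8 UMIs, and edgeR called it higher there (log2 fold change 1.83, SE 0.46, adjusted p 0.0022). That call was lost without the day 2 library (1.59, adjusted p 0.14) and without the reversed library (1.88, adjusted p 0.077). B cells held 61.9, 133 and 27.3, with a fold change of 1.25 that did not pass (SE 0.55, adjusted p 0.13). Over all T cells Cxcr4 lay between 0 and 23.9, beside 20.2 in the tubule cells other than proximal ones at day 2. Type 1 and type 2 dendritic cells held less than the other leukocytes (-2.76, SE 0.45, adjusted p 1.1e-05 and -1.44, SE 0.32, adjusted p 0.0013 by edgeR).

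Cxcr3 and Cxcr6 were both called higher in T cells. Cxcr6, the receptor of the transmembrane chemokine Cxcl16, was at 1018, 415, 547 and 649 CPM over all T cells from sham to reversal, where the sham value rests on 18 cells. In CD8 T cells it was 386, 661 and 778 from day 2 to reversal, in CD4 T cells 378, 476 and 667, and in T cells without Cd4 or Cd8 485, 696 and 661. The values of these 3 subsets overlapped. Regulatory T cells were lower, at 85.5 and 123 at day 7 and after reversal, and NK cells held 60.0, 62.3 and 252. In macrophages Cxcr6 did not exceed 4.40, beside 7.55 in the proximal tubule at day 7. The T cells held 86.0%, 95.02%, 90.6% and 95.9% of leukocyte Cxcr6 UMIs. By edgeR's test the log2 fold change was 6.68 over all T cells (SE 0.31, adjusted p 2.0e-11, 4 of 4 libraries), 3.88 in CD8 T cells (SE 0.21, adjusted p 3.5e-10), 3.07 in CD4 T cells (SE 0.26, adjusted p 4.6e-29) and 3.83 in those without either (SE 0.24, adjusted p 1.5e-13). In NK cells it was 0.40 (SE 0.35, adjusted p 0.57).

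Cxcr3, the receptor of the interferon-induced ligands Cxcl9 and Cxcl10, was at 355, 178, 185 and 271 CPM over all T cells. CD8 T cells held 193, 226 and 278 from day 2 to reversal, CD4 T cells 252, 185 and 322, and T cells without Cd4 or Cd8 142, 185 and 283. The 3 subsets overlapped again. By edgeR's test the log2 fold change over all T cells was 3.47 (SE 0.21, adjusted p 4.2e-10), and 2.81, 2.55 and 2.44 in the 3 subsets (SE 0.23, 0.27 and 0.20; adjusted p 3.7e-08, 9.1e-19 and 5.3e-11). Cxcr3 was also higher in type 1 dendritic cells, which present antigen to CD8 T cells, at 110, 128 and 113 (log2 fold change 2.12, SE 0.21, adjusted p 5.6e-10, 3 of 3 libraries). The T cells held 88.2%, 59.9%, 44.5% and 69.5% of leukocyte Cxcr3 UMIs from sham to reversal, and type 1 dendritic cells 5.88%, 23.4%, 27.0% and 20.9%. At day 7 macrophages held another 20.5%, at a level of 11.9 CPM over 1564 cells. Type 2 dendritic cells held at most 3.66. NK cells held 90.0, 84.5 and 83.9, and their call (1.09, SE 0.36, adjusted p 0.020) was lost without the day 2 library (0.84, adjusted p 0.29) and without the day 7 library (0.93, adjusted p 0.54).

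The counts in lymphocytes were as follows. In CD8 T cells 2 of 8 receptors were higher and 4 lower, against 8.89% and 15.9% of all genes. In CD4 T cells 2 were higher and 4 lower, against 5.4% and 11.1%, and in T cells without Cd4 or Cd8 also 2 and 4, against 9.32% and 15.5%. The higher pair was Cxcr3 and Cxcr6 in each of them. Over all T cells 2 of 7 were higher and 3 lower (Ccr1, Ccr2, Cx3cr1), against 15.7% and 21.8%. In NK cells 1 of 8 was higher and 4 lower, against 4.16% and 10.8%. In type 1 dendritic cells 1 of 8 was higher (Cxcr3) and 6 lower, against 11.5% and 14.5%. Lower calls lost without 1 library were Cxcr2 in CD8 T cells (day 2 or reversed), in T cells without Cd4 or Cd8 (any of the 3) and in type 1 dendritic cells (reversed), Cxcr4 in CD4 T cells (day 7 or reversed), and Ccr2 (day 2) and Ccr7 (day 7) in NK cells.

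Ccr7, the receptor of Ccl19 and Ccl21, was highest in mature dendritic cells, at 878 CPM at day 7 and 961 after reversal. These cells had too few libraries for the test. They held 82.2% of leukocyte Ccr7 UMIs at day 7 and 75.1% after reversal, in 68 and 22 cells. Thinned, 57.4% and 45.5% of them held a UMI. B cells held 309, 305 and 182 from day 2 to reversal, and edgeR called Ccr7 higher there (log2 fold change 3.36, SE 0.34, adjusted p 2.2e-21, 3 of 3 libraries). T cells held 0, 32.6, 20.2 and 23.4 from sham to reversal, with a fold change of -0.50 that did not pass (SE 0.39, adjusted p 0.34). Ly6c2-high and Ace-positive monocytes gave 0 Ccr7 UMIs in every library, and type 1 dendritic cells at most 1 UMI per library. The Ace-positive monocytes numbered 14, 21 and 12 from day 2 to reversal, so their 0 UMIs do not place them below the T cell levels. In B cells 1 of 8 receptors was higher and 5 lower, against 2.91% and 9.05% of all genes, and the lower calls of Cxcr3 and Cxcr6 there were lost without the reversed library.

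In macrophages Ccr1 was highest at day 2. It was at 10.5 CPM in the sham library (1 UMI in 32 cells), 184 at day 2, 83.5 at day 7 and 40.4 after reversal. The log2 ratio, with 1 added to each level, was 4.01 for day 2 over sham (interval 1.64 to 9.44), -1.13 for day 7 over day 2 (-1.33 to -0.95) and -1.03 for reversal over day 7 (-1.36 to -0.75). Intervals are exact conditional binomial ones, taken without the added 1, and each time point is 1 library with no replicate check. Ccr1 had a similar ratio of day 7 over day 2 in Ly6c2-high monocytes (-1.12, -1.47 to -0.80) and type 2 dendritic cells (-0.93, -1.31 to -0.56). For reversal over day 7 its ratio was 0.38 (-0.09 to 0.84) in type 2 dendritic cells, opposite in sign to macrophages. In type 1 dendritic cells it was -1.41 (-4.91 to 0.50), from 11 and 2 UMIs. The median depth of macrophages was 2803, 11882, 5842 and 6103 UMIs per cell from sham to reversal, and its part in the ratios was not tested. With each cell thinned to 1000 UMIs the Ccr1 ratio of day 7 over day 2 in macrophages was -0.70. Thinning gives each cell equal weight in such a ratio and does not test depth.

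Ccr2 and Cx3cr1 in macrophages were both higher at day 7 than at day 2. For Ccr2 the log2 ratio was 0.82 for day 2 over sham (0.26 to 1.44), 0.74 for day 7 over day 2 (0.64 to 0.85) and -0.43 for reversal over day 7 (-0.51 to -0.35). For Cx3cr1 it was 0.08 (-0.37 to 0.56), 0.76 (0.66 to 0.87) and -0.04 (-0.12 to 0.03). The day 7 ratio for Ccr2 was 1.02 with panel limits raised by 0.5 and 0.47 with thinned cells. The median of all genes in these comparisons was 0.31, 0.07 and -0.02. Cxcr4 was at 17.1 at day 7 and 42.8 after reversal (1.27, 0.96 to 1.68, and 0.74 in thinned cells). In endothelium Ccr2 was 13.5 at day 2, 38.8 at day 7 and 10.8 after reversal, and the part of RNA from outside the cell in the macrophage values was not tested.

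Of the receptors with enough UMIs, 1 of 4 was at least 2-fold higher and 0 lower at day 2 than in sham, against 31.6% and 11.8% of all genes. At day 7 against day 2 it was 3 of 8 higher and 1 lower (Ccr1), against 12.4% and 5.1%. The 3 were Ccr7, Cxcr3 and Cxcr6 at 2.92, 11.9 and 4.22 CPM, beside 2.83, 2.83 and 7.55 in the proximal tubule. Ccr7 and Cxcr6 had 0 UMIs at day 2, which allows up to 1.79 CPM, so their ratios depend on the added 1. Both passed the minimum of 10 UMIs over both libraries through day 7 alone. Their calls as higher were thus fixed in advance and are no result. After reversal against day 7 it was 1 higher (Cxcr4) and 1 lower (Ccr1) of 8, against 2.87% and 2.49%. Reversal against sham gave 5 of 6 higher and 0 lower, against 32.9% and 10.2%, with at most 1 sham UMI behind 4 of the 5. Cxcr3 and Cxcr6, with 0 sham UMIs, stood at 9.19 and 4.40 after reversal, under the 31.5 that 0 UMIs allow in the sham library. They passed the minimum through the reversed library alone, so their calls as higher were also fixed in advance. Ccr2 was the other one, with a ratio of 1.13 (0.57 to 1.75).

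**Figure D3:**
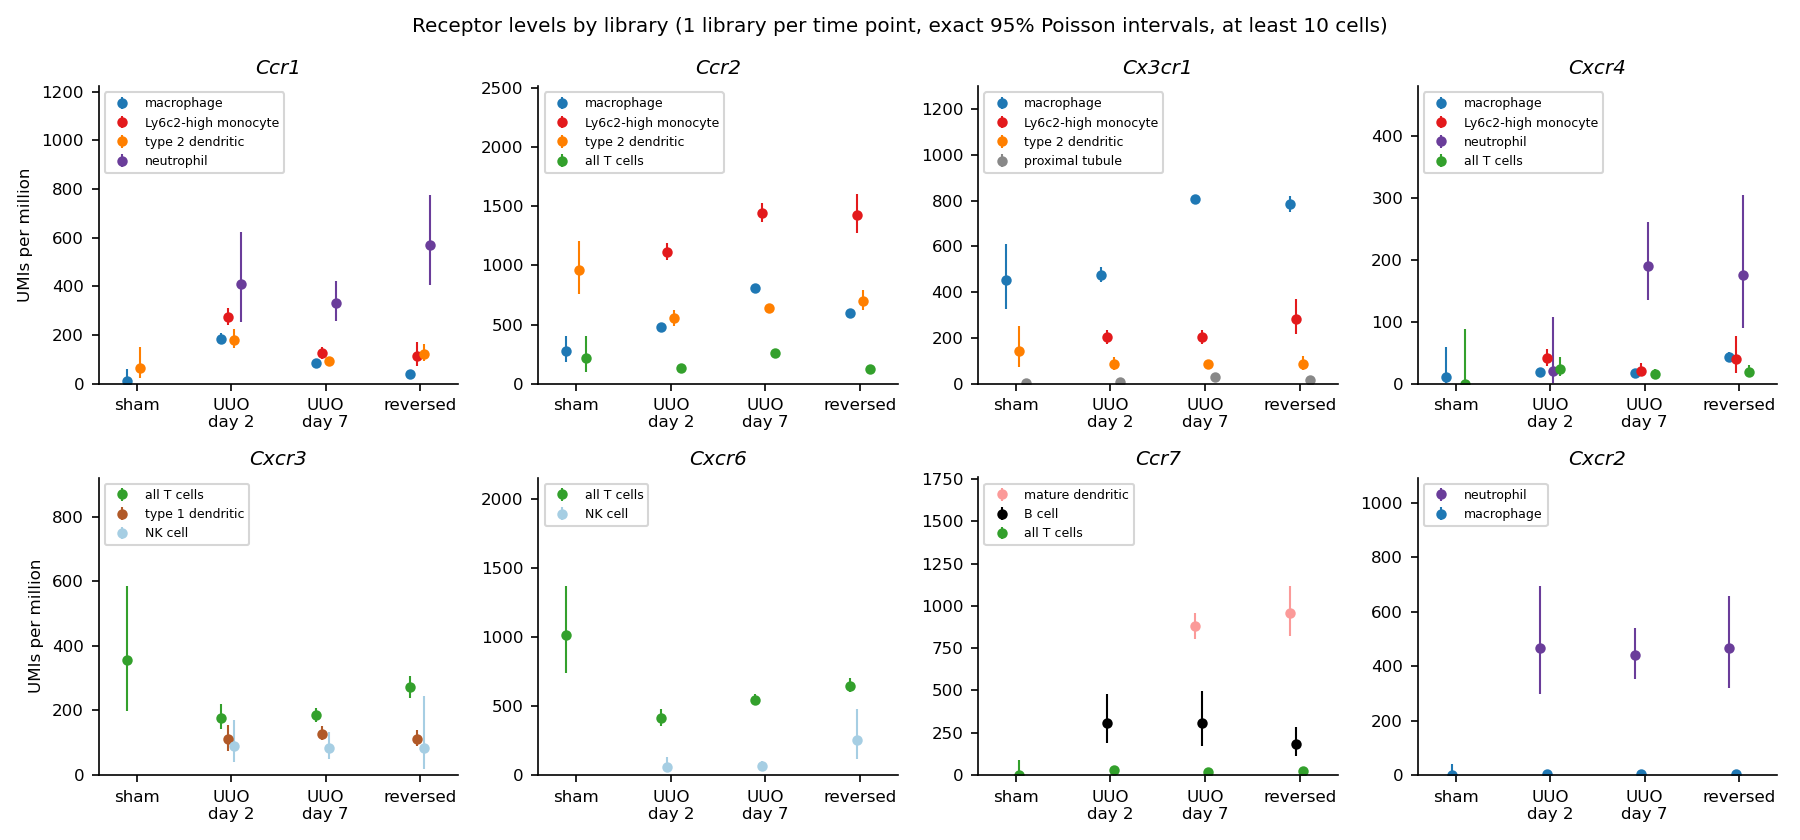
Level of each receptor in CPM (y axis) in the 4 libraries (x axis), 1 point per gated subset with at least 10 cells and exact 95% Poisson intervals. Ccr1 is lower at day 7 than at day 2 in macrophages, Ly6c2-high monocytes and type 2 dendritic cells, while macrophage Ccr2 and Cx3cr1 are higher.

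In T cells Cxcr6 was higher at day 7 than at day 2 by a log2 ratio of 0.40 (0.17 to 0.64) and after reversal than at day 7 by 0.25 (0.09 to 0.40). The median of all genes in these comparisons was 0.25 and 0.02. In CD8 T cells the day 7 ratio was 0.77 (0.41 to 1.16) beside a median of 0.24. For reversal over day 7 it was 0.24 (-0.01 to 0.48) in CD8 and 0.48 (0.13 to 0.84) in CD4 T cells. T cells without Cd4 or Cd8 gave 0.52 (0.17 to 0.89) at day 7 but -0.08 (-0.33 to 0.18) after reversal. Over all T cells Cxcr3 was level between day 2 and day 7 (0.05, -0.31 to 0.43) and higher after reversal (0.55, 0.30 to 0.81). For Ccr2 in T cells the 2 ratios were 0.99 (0.60 to 1.42) and -1.05 (-1.36 to -0.75), and for Cx3cr1 1.12 and -1.21, at 21.7, 48.4 and 20.4 CPM. Endothelial Cx3cr1, at 8.58, 37.9 and 14.3, moved in the same order. The part of RNA from outside the cell in these T cell values was not tested. Of 7 receptors 1 was at least 2-fold higher at day 7 than at day 2 (Cx3cr1) and 0 lower, against 15.0% and 2.81% of all genes. After reversal 0 were higher and 3 lower (Ccr1, Ccr2, Cx3cr1), against 5.46% and 4.69%.

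Within the mononuclear phagocytes Ccr2 and Cx3cr1 were distributed differently along the macrophage panel, a continuous score. Bins of the panel's log2 level were set at under 5, 5 to 7, 7 to 8, 8 to 9, and 9 or more. At day 7 Cx3cr1 was 71.6, 165, 555, 835 and 978 CPM from the lowest bin to the highest. Ccr2 was 620, 955, 1078, 818 and 534. The library after reversal gave Cx3cr1 at 139, 219, 569, 781 and 895 and Ccr2 at 844, 827, 868, 655 and 446. At day 2, where no bin of 9 or more had enough cells, Cx3cr1 was 140, 354, 448 and 512 and Ccr2 805, 789, 552 and 406. In sham phagocytes the lowest bin, with 22 cells, held Ccr2 at 1214 and Cx3cr1 at 120, and the bin of 8 to 9, with 16 cells, held 294 and 588. Each of the 4 libraries thus had its highest Cx3cr1 in its highest bin, and less Ccr2 there than in its lowest one. Ccr1 followed no common order: it was 206, 187, 167 and 232 at day 2 and 83.5, 96.9, 68.9, 77.2 and 121 at day 7, where the highest bin lay above the lowest beyond their intervals. After reversal it was 86.8, 95.4, 71.6, 27.9 and 44.4, with the highest bin below the lowest beyond their intervals, and in sham it was 73.6 in the lowest bin (8 UMIs) and 21.0 in the bin of 8 to 9 (1 UMI). Median depth fell from 8772 to 5182 UMIs from the lowest to the highest bin at day 7, and its part was not tested.

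**Figure D4:**
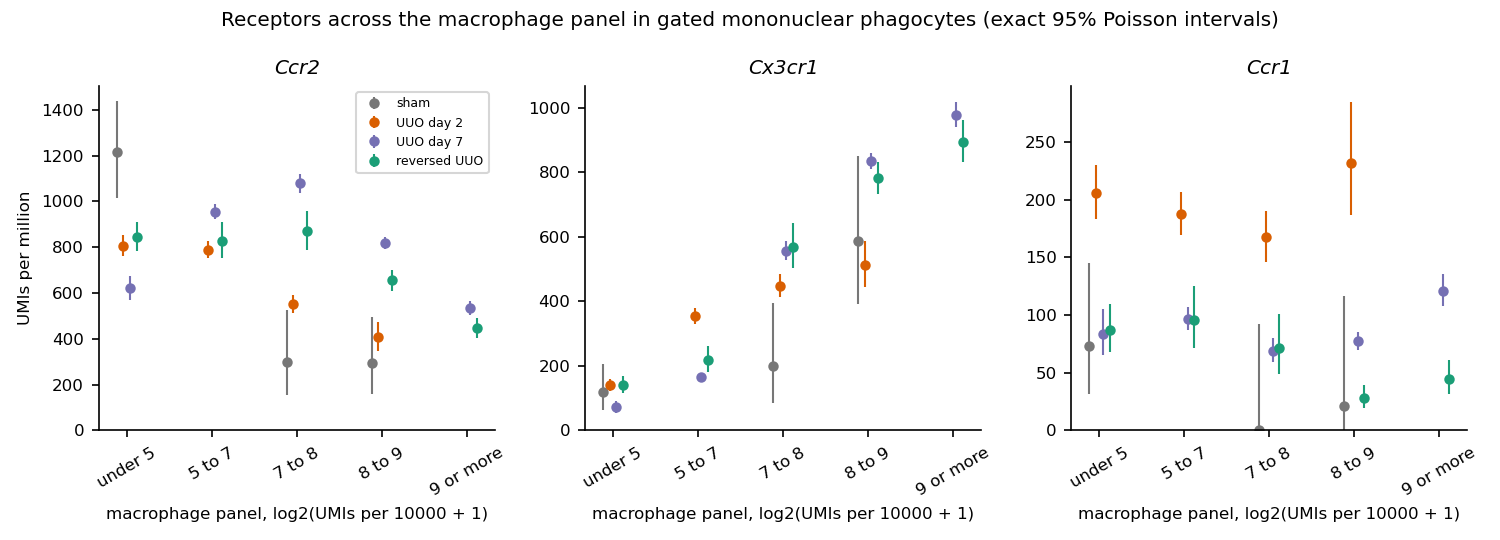
Level of Ccr2, Cx3cr1 and Ccr1 in CPM (y axis) in mononuclear phagocytes split into bins of the macrophage panel (x axis), coloured by library, with exact 95% Poisson intervals. Cx3cr1 climbs with the panel in all 4 libraries, and Ccr2 at the top of the panel is below its level in the lowest bin.

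UMIs of the 2 receptors also met in the same cells. In thinned macrophages 3.13%, 11.1%, 22.8% and 16.0% held UMIs of both from sham to reversal. At day 7 22.1% held Ccr2 alone, 31.6% Cx3cr1 alone and 23.5% neither. Cx3cr1 was found in 50.8% of the Ccr2-positive and 57.4% of the Ccr2-negative macrophages at day 7, and in 45.0% and 54.4% after reversal. Endothelial cells, which should lack both, held UMIs of both in 0.203% of thinned cells at day 7 (1 of 492) and Cx3cr1 in 4.27%, and thinned proximal tubule cells held both in 0 of 167, which allows a share of up to 1.80%. The share with both depended on depth: in macrophages it was 64.7% without thinning and 8.12% at 500 UMIs, and without thinning it was 3.46% in endothelium and 2.99% in proximal tubule at day 7. The part of RNA from outside the cell in the macrophage share was not tested. In T cells Cxcr3 and Cxcr6 were both found in 22.2%, 4.76%, 7.01% and 13.1%, against 0 of 492 thinned endothelial cells at day 7, and after reversal Cxcr6 was found in 54.8% of Cxcr3-positive and 39.1% of Cxcr3-negative cells. Over 35 sums of subset and library, Cxcr3 and Cxcr6 had the highest correlation of any receptor pair (Pearson r 0.83 on log2 levels), and Ccr2 and Ccr7 the lowest (-0.70). These sums share libraries and depth, so the values are descriptions.

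Smart-seq2 reads full-length transcripts from single sorted wells. Of 768 wells 416 passed, with a median of 440854 reads, and 355 were gated as leukocytes, of which none was a lymphocyte or neutrophil. The wells therefore bear on phagocytes and a few dendritic cells (5 type 1, 2 plasmacytoid and 1 mature), in reads without UMIs. The table also counts EGFP, a fluorescent reporter, in a row of its own, while the labels name no reporter strain and no sort other than for live cells. In 227 macrophage wells Ccr2 had a median of 229 reads per 1000000 (RPM) and Cx3cr1 713. Of these wells 98.7% had at least 1 read of Ccr2, and the same share held for Cx3cr1. With at least 10 reads required the shares were 70.0% and 79.3%. The 5 wells gated as endothelium, fibroblast or tubule, which should lack both receptors, held up to 14 reads of each, and 1 of them passed 10 reads for both, so 10 reads do not clear this background. At a minimum of 100 reads, set after these values had been seen and passed by none of the 5 wells, both receptors were found in 73 macrophage wells (32.2%), Ccr2 alone in 28, Cx3cr1 alone in 67 and neither in 59. At 10 reads 131 wells (57.7%) held both.

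The other phagocyte classes differed in the pair. In 26 type 2 dendritic wells the median of Ccr2 was 1259 RPM and of Cx3cr1 76.8. In 30 Ace-positive monocyte wells Cx3cr1 had a median of 634 and Ccr2 30.8. The 3 Ly6c2-high monocyte wells had a median Ccr2 of 1200. Ccr1 was found in 70.9% of macrophage wells at 1 read and in 29.1% at 10 reads. Cxcr3 reached 10 reads in 14 macrophage wells, Cxcr4 in 9 and Ccr7 in 1. Cxcr6 had a read in 1 macrophage well and Cxcr2 in none of 227, which by 3 counts of the total allows a share of wells with a read, not of wells expressing the gene, of up to 1.32%. The only mature dendritic well held Ccr7 at 6483 RPM. Over the 6 plates with at least 10 macrophage wells the median of Ccr2 ranged from 16.4 to 710 and of Cx3cr1 from 8.56 to 1318, and since wells carry no time label the plate and the time point cannot be told apart.

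**Figure D5:**
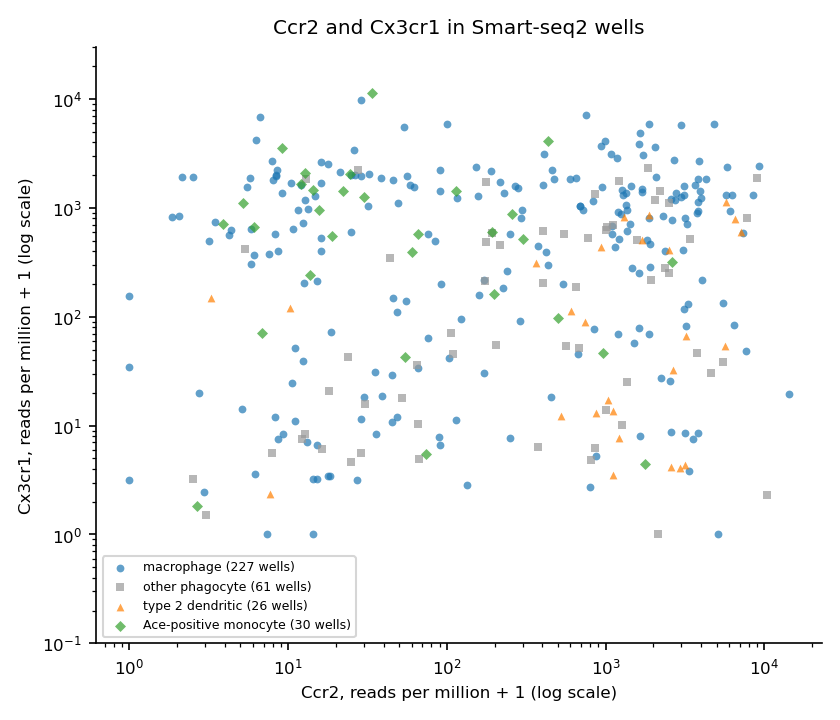
Ccr2 (x axis) against Cx3cr1 (y axis) in RPM plus 1, both on log scales, 1 point per Smart-seq2 well, for the 4 largest gated classes. Macrophage wells spread over both axes with 32.2% holding at least 100 reads of each, all but 3 of the 26 type 2 dendritic wells lie to the right, and Ace-positive monocyte wells mostly at high Cx3cr1.

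Ligands were taken from lists by receptor. All 4 genes listed as ligands of Ccr2 (Ccl2, Ccl7, Ccl12, Ccl8) were higher in mononuclear phagocytes by edgeR's test, against 16.2% of all genes. Their median log2 fold change was 4.31, and Ccl2, Ccl7 and Ccl12 had 4.58, 4.04 and 4.79. Whether mouse Ccl8 acts on Ccr2 was not tested. All 4 were lower in Ly6c2-high monocytes, with a median of -1.99, against 8.74%. In macrophages 3 of the 4 were higher, Ccl7, Ccl12 and Ccl8, against 10.6%. Macrophage Ccl2 was at 0, 725, 366 and 308 CPM from sham to reversal, and Ccl8 at 10.5, 50.1, 492 and 491. Of the 5 listed Ccr1 ligands, 3 were higher in mononuclear phagocytes (Ccl9, Ccl6, Ccl3) and 1 lower (Ccl5), against 16.2% and 11.1% of all genes. Ccl5 was higher in T cells (log2 fold change 3.42) and NK cells (4.06).

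Cxcl16, the ligand of Cxcr6, was higher in macrophages (1.88, SE 0.26, edgeR adjusted p 0.00031), at 777, 512, 646 and 687 CPM, and stood at 892 and 910 in mature dendritic cells. Of the 2 Cxcr3 ligands found, Cxcl9 and Cxcl10, both were higher in mononuclear phagocytes (1.65 and 1.40, against 16.2% of all genes) and neither was called in macrophages alone. Cxcl2, a Cxcr2 ligand, was higher in the neutrophils themselves (4.01, SE 0.50, adjusted p 2.7e-13), at 5847, 5513 and 14735. Cxcl3, another ligand of Cxcr2, was also higher there (3.79, SE 0.52, adjusted p 5.1e-11). Cxcl1 (1.89, SE 0.68, adjusted p 0.069) and Ppbp (-1.27, SE 1.12, adjusted p 0.59) did not pass. The list also held Pf4, which is not an established ligand of Cxcr2 and was lower in neutrophils (-3.31, SE 0.51, adjusted p 7.3e-09), so 2 of the 5 listed genes tested were higher and 1 lower, against 3.59% and 3.46% of all genes. Cxcl12, the ligand of Cxcr4, was at 120, 215, 989 and 95.8 in fibroblasts and mural cells from sham to reversal. Cx3cl1 was at 80.8, 115, 93.0 and 82.2 in endothelium.

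Of the listed receptors of the family outside the set, Ccr9 and Xcr1 were lower in mononuclear phagocytes by edgeR's test. Xcr1 was higher in type 1 dendritic cells (7.01, SE 0.25), and Cxcr5 and Ccr6 in B cells (7.14, SE 1.17 and 3.68, SE 0.78). Xcr1 was itself among the 10 leading genes of the type 1 dendritic gate, of which 6 were that gate's own markers. Of 20 signalling genes tested below the receptors, 6 were higher and 2 lower in mononuclear phagocytes, against 16.2% and 11.1% of all genes, and 3 higher and 8 lower in T cells, against 15.7% and 21.8%. The 2 lower in phagocytes and the 3 higher in T cells are near those shares. Each class is part of the other's comparison group, so opposite calls in the 2 classes are not independent. Arrb1 and Arrb2, arrestins that end receptor signalling, were among those higher in mononuclear phagocytes.

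The genes whose log2 level over the 35 sums was most like that of each receptor were listed among 8919 genes. Csf1r came first for Cx3cr1 (Pearson r 0.91), Cd28 for Cxcr6 (0.95) and Prkcq for Cxcr3 (0.85). For Ccr2 it was Rnpep (0.87), for Ccr1 Clec4a2 (0.86), for Cxcr2 Gm5483 (0.77), for Ccr7 Mif4gd (0.75) and for Cxcr4 Tmem87b (0.73). Csf1r and Cd28 belong to the panels that defined the gates.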

How the data were processed

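The 4 droplet libraries were deposited as matrices of UMI counts, made with Cell Ranger per the submitters' processing notes, which also name STAR, GRCm38 and mm10 without their roles. The Smart-seq2 counts were deposited by the authors as 1 table of reads per gene and well, named by the authors for featureCounts in Rsubread; tool versions are not given in the sources used here. Its ERCC spike-in and EGFP rows, 1.49% and 0.061% of reads in the wells kept, were left out of totals. The labels repeat the droplet protocol for the wells. Droplet cells needed 200 genes and at most 50% mitochondrial UMIs, and wells 50000 reads and 500 genes. Leukocytes were gated by marker panels, and cells of more than 1 lineage were left out as possible doublets. Counts were summed per subset and library and tested with edgeR 4.0.16 (quasi-likelihood, TMM, filterByExpr), with DESeq2 1.42.0 among the alternatives. On simulated counts for the macrophage comparison, 192 of 200 genes changed 4-fold were recovered, with 5 false calls. The simulated libraries shared the same pooled profile, and genes with low counts were not among those changed. Recovery in smaller subsets was not simulated. The libraries hold between 13288903 and 30261657 UMIs in the cells kept. Nothing in the labels says that libraries were repeated, so the only spread behind the p-values is between libraries of different time points. edgeR moderates this spread toward that of all genes, so a receptor's own spread can weigh little. Cxcr4 in neutrophils passed (edgeR adjusted p 2.1e-07) with levels that ranged from 19.4 to 190 CPM. The text names the 8 receptors, genes of listed ligands, receptors and signalling genes, and, of the 3 genes most correlated with each receptor, the first; some listed genes are not reported here. The receptors and lists were chosen with earlier results of these data known. Promoters came from RefSeq and gene positions from GENCODE M21, and 7 receptors matched the promoter table (Ccr7 did not).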

Additional observations from a re-analysis of the deposited data

How the results depend on the processing

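Of the 81 receptor and subset pairs called, no called direction was reversed under any alternative. Called pairs numbered 81 with DESeq2's size factors, 85 with no filter, 66 with DESeq2, between 78 and 80 with other gates by marker number, a 20% mitochondrial limit or Scrublet's highest-scoring cells removed, and 72 and 70 with panel limits 0.5 higher and lower, chosen after seeing the data, where 12 and 7 of the 81 pairs could no longer be tested. Leaving out 1 library gave between 62 and 85. Without the library block (no replicate block, no pairing of a library's 2 sums) 61 pairs were called, 19 higher and 42 lower, and 4 higher calls were lost: Ccr1 in Ly6c2-high monocytes (adjusted p 0.24) and type 2 dendritic cells (0.66), Ccr2 in other phagocytes (0.46) and Cxcr3 in NK cells (0.29). Of the 58 lower calls, 16 were lost without the block, 11 with DESeq2 and at most 3 under any other setting that kept all libraries. Ccr1 in type 2 dendritic cells was also lost with DESeq2 (adjusted p 0.11) and lower limits (0.056), and Cxcr3 in NK cells with DESeq2 (0.16) and no filter (0.053). No paired analysis was possible because each time point is 1 library, for the comparisons over time. With cells thinned to 1000 UMIs the log2 ratios of day 7 over day 2 in macrophages were -0.70 for Ccr1, 0.47 for Ccr2 and 0.63 for Cx3cr1, that of Ccr1 in Ly6c2-high monocytes was -0.71, and those of reversal over day 7 in macrophages were -0.28 for Ccr2 and 0.74 for Cxcr4. With each cell counted equally the Ccr2 ratios were 0.59 and -0.28. With panel limits raised or lowered by 0.5 the Ccr2 ratio of day 7 over day 2 was 1.02 and 0.54. Day 7 shares of cells with a UMI, without thinning and at 500 UMIs, were 97.7% and 45.4% for Ccr2 in Ly6c2-high monocytes, 92.1% and 33.4% for Cx3cr1 in macrophages and 64.0% and 22.6% for Cxcr6 in T cells. Shares with both receptors were 64.7% and 8.12% for Ccr2 and Cx3cr1 in macrophages and 29.9% and 2.87% for Cxcr3 and Cxcr6 in T cells. In Smart-seq2 macrophage wells a minimum of 10 reads gave 29.1% for Ccr1, 70.0% for Ccr2 and 79.3% for Cx3cr1, and a minimum of 100 reads, chosen after seeing the data, gave 32.2% with both Ccr2 and Cx3cr1 in place of 57.7%. The cause of each of these shifts was not tested. Thinning sets the depth behind shares of cells, while in the ratios it gives each cell equal weight. Sham holds 88 leukocytes, so its levels rest on few UMIs.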
